A study of Mus musculus with 6 samples.

Results

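The TNF superfamily and its signalling genes were taken by name from the deposited table of liver expression: every symbol that begins with Tnfrsf, Tnfsf, Tnfaip or Traf and a digit, and Tnf, Lta, Ltb and Ltbr. Of 14492 genes in the table, 47 matched. These are 9 ligands, 20 receptors, 7 TRAF adaptors, 3 Traf3ip genes that are not TRAFs themselves, and 8 Tnfaip genes, named for induction by TNF or for likeness to Tnfaip8. Another 7 genes of GENCODE M21 fit the pattern (Lta, Tnfsf4, Tnfsf11, Tnfsf15, Tnfsf18, Tnfsf13os and Tnfrsf17) and were not analysed here. Each of the 47 identifiers was found in that annotation.

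RNA came from the livers of 6 male C57BL/6 mice, 8 weeks old at the start, which were injected through the tail vein and then ate a high-fat diet for 2 weeks. Of these, 3 are labelled as injected with an adenovirus that overexpresses Chrna4, a nicotinic acetylcholine receptor subunit, and 3 with vehicle; the first are called Chrna4-labelled livers. The sources used here do not give the promoter of the vector or the cells it reaches. A second label speaks of adenovirus injection without naming a group, so whether vehicle mice received an empty virus is not stated. The comparison asks what differed in the liver after the Chrna4 virus.

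TNF ligands are trimers, held at the cell membrane or shed from it, that cluster receptors on a neighbouring cell. Receptors with a death domain can start cell death. Receptors with or without one can act through TRAF adaptors that lead to NF-kB and stress kinases. NF-kB in turn switches on its own brakes, such as the ubiquitin-editing protein A20. In liver, TNF from macrophages is known as a driver of inflammation, hepatocyte death and regeneration.

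Values are CPM, the reads of a gene relative to a library total that the authors had scaled. Recovered reads numbered 14959338 to 17023536 in Chrna4-labelled libraries and 15191611 to 22440334 in vehicle libraries. Chrna4 itself was at 2.17 to 3.82 CPM in Chrna4-labelled livers and 1.70 to 4.99 CPM in vehicle livers, a log2 fold change of 0.0069 (limma, adjusted p = 0.993), so the level of the targeted gene did not tell the groups apart, and every direction below is by label. The sources used here do not say if RNA of the vector was counted as mouse Chrna4. The table has hepatocyte RNA throughout: Alb, the albumin gene, averaged 45930 CPM in Chrna4-labelled livers and 51760 CPM in vehicle livers. By rank, vehicle replicate 1 stood apart, with a Spearman correlation across genes of 0.978 and 0.974 with the other vehicle libraries, which correlated at 0.990. Its level, on the log2(CPM + 1) scale, was below the mean of vehicle replicates 2 and 3 for 14 of the 15 members that rose, with a median difference of -0.47. Those members were picked as higher than vehicle; over all 34 tested members the median difference was -0.063, with 21 lower, and over all genes tested -0.0077. The labels do not say that mice of a group came from separate cages or litters, and p-values measure the spread between these libraries.

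By limma 9 of 15 tested receptors and 4 of 6 tested Tnfaip genes rose, and 0 of 7 TRAF adaptors and 0 of 3 tested ligands passed. In so few adaptors and ligands, 0 is near the share of all tested genes given below and does not set these classes apart. A gene was tested when its mean over the 6 libraries was at least 1 CPM, which 34 members met, and was called at an adjusted p of 0.05 by limma on log2(CPM + 1). Of the 34 tested members 15 were higher and 1 was lower, where 14.2% of all 12099 tested genes were higher and 10.3% lower. The 15 were 9 receptors, 4 Tnfaip genes and 2 genes with a Traf name. The median log2 fold change of the 34 was 0.49, against -0.01 over all genes tested, and 29 of the 34 had a positive value. The filter favours this direction in 4 of them (Tnfrsf10b, Tnfrsf9, Tnfrsf22 and Tnfrsf23), whose mean was under 1 CPM in vehicle livers. Tnfrsf10b, Tnfrsf9 and Tnfrsf23 are among the 9 receptors that rose, so the counts of higher members and the median are descriptions only. With plain library totals in place of the scaling in the deposited values, the median of all genes moved up by 0.32, 25 members were higher and 0 lower (limma), and 93.0% of all called genes were higher, against 58.1% with the deposited scaling. By that scaling 37.3% of all tested genes were higher and 2.82% lower. Without vehicle replicate 1, 17 members were higher and 1 lower, and 15.8% and 11.7% of all tested genes. Without Chrna4-labelled replicate 2 the higher members numbered 9.

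**Figure D1:**
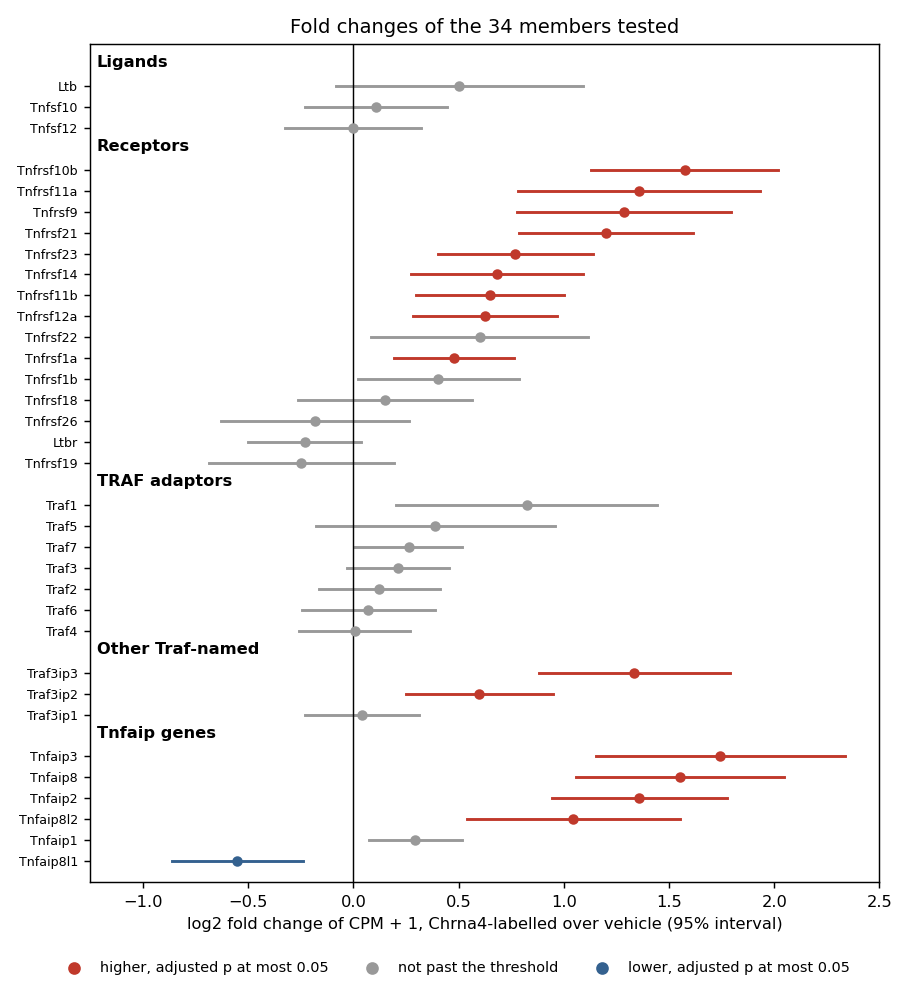
Log2 fold change of CPM + 1, Chrna4 adenovirus over vehicle, for each of the 34 members tested, grouped by role, with 95% intervals from limma. Red points passed an adjusted p of 0.05 as higher and the blue point as lower. Of 15 tested receptors 9 are red, and all 7 TRAF adaptors are grey. Tnfrsf10b, Tnfrsf9 and Tnfrsf23, among the red receptors, met the filter through their Chrna4-labelled values.

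Ligand transcripts were scarce, and Tnf was the one ligand with calls in fits that kept low genes. Tnf, the founding cytokine of the family (chromosome 17, 35199381 to 35202007, minus strand, GRCm38), had 1.53, 1.64 and 1.06 CPM in Chrna4-labelled livers from 26, 31 and 20 reads, against 0.0772, 0.536 and 0.596 CPM in vehicle livers from 1, 10 and 12 reads. The groups did not overlap, and vehicle replicate 1 had a single read. Its mean over the libraries was under 1 CPM, so it was not in the main test. Without the filter, where limma called 13.4% of all 14492 genes higher and 8.55% lower, it gave Tnf a log2 fold change of 0.79 (adjusted p = 0.0155), and edgeR's quasi-likelihood test on the recovered reads gave 1.69 (adjusted p = 0.0406), in a fit that called 12.6% of all genes higher and 8.48% lower. The authors' deposited table gives Tnf a log2 fold change of 1.69 with an adjusted p of 0.00176.

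Ltb, the lymphotoxin beta chain that holds lymphotoxin at the cell membrane, had 3.17, 3.07 and 2.81 CPM in Chrna4-labelled livers, against 0.849, 2.68 and 2.33 CPM in vehicle livers. The groups lay apart by a small margin, vehicle replicate 1 was far below the rest, and Ltb did not pass (log2 fold change 0.50, limma, adjusted p = 0.198; 95% interval from -0.08 to 1.09), with a value of 0.20 without that library. Tnfsf10, which encodes the death ligand TRAIL, averaged 8.73 ± 1.37 CPM in Chrna4-labelled livers and 7.98 ± 0.562 CPM in vehicle livers (SD, n = 3 each), with an interval from -0.23 to 0.45. Tnfsf12, which encodes the cytokine TWEAK, averaged 5.94 ± 0.336 CPM in Chrna4-labelled livers and 5.97 ± 0.756 CPM in vehicle livers (SD, n = 3 each), with an interval from -0.33 to 0.32. By limma 0 of these 3 tested ligands passed, where 24.5% of all tested genes were called, and 0 had an unadjusted p under 0.05. edgeR and DESeq2, which also took in the 6 low ligands, each called 1, Tnf (DESeq2 called 12.6% of all genes higher). Per kb of exon Tnfsf12 had the highest mean of the 9 ligands, 3.92 CPM per kb in Chrna4-labelled livers and 3.94 in vehicle livers. Tnfsf12 and Tnfsf13 share exon sequence with the read-through gene Tnfsfm13, and how reads of such overlaps were counted is not given, so their values are uncertain.

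Another 5 ligands were below the filter. Tnfsf13, a survival factor of plasma cells, averaged 0.657 ± 0.0278 CPM in Chrna4-labelled livers and 0.346 ± 0.135 CPM in vehicle livers (SD, n = 3 each), with no overlap between the groups and an adjusted p of 0.112 in limma without the filter. Tnfsf9, the ligand of Tnfrsf9, had 3, 8 and 7 reads in Chrna4-labelled livers and 2 reads in each vehicle liver. Tnfsf13b, the B cell survival factor BAFF, and Tnfsf14, the ligand of Tnfrsf14, overlapped between the groups. Tnfsf8, a ligand of activated T cells, had 10 reads over the 6 libraries, and 2 of the libraries had none.

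**Figure D2:**
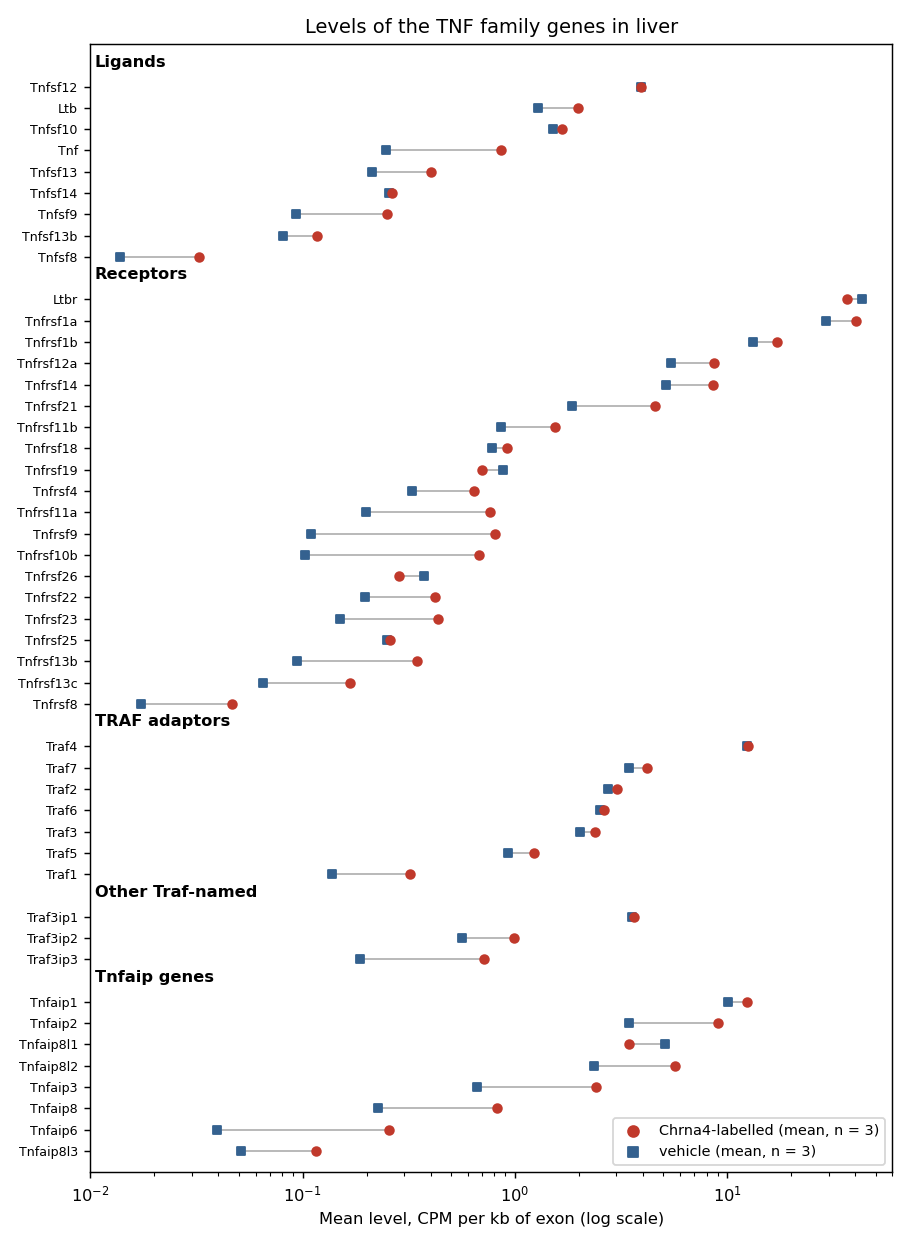
Mean level of each of the 47 members in CPM per kb of exon (log scale) in Chrna4-labelled livers (red circles) and vehicle livers (blue squares), n = 3 each, ordered within each role by the mean over both. Ltbr, Tnfrsf1a and Tnfrsf1b are the receptors with the highest levels, and the widest gaps between groups belong to receptors at low levels such as Tnfrsf10b and Tnfrsf9.

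Among tested receptors, those with the highest levels had small fold changes, and the largest rises were those of receptors at low levels. That order is a description only. Tnfrsf10b, Tnfrsf9, Tnfrsf22 and Tnfrsf23 averaged under 1 CPM in vehicle livers and met the filter through their Chrna4-labelled values. Per kb of exon, Ltbr and Tnfrsf1a led with 36.5 and 40.3 CPM per kb in Chrna4-labelled livers and 43.2 and 29.2 in vehicle livers, followed by Tnfrsf1b with 17.2 in Chrna4-labelled livers and 13.2 in vehicle livers. Ltbr and Tnfrsf1a are neighbours on chromosome 6 (125306571 to 125313885 and 125349362 to 125362484). Tnfrsf1a, the widely expressed TNF receptor with a death domain, had 104, 102 and 107 CPM in Chrna4-labelled livers, against 90.7, 66.8 and 69.1 CPM in vehicle livers. The Chrna4-labelled livers lay close together and above each vehicle liver, and Tnfrsf1a passed with a log2 fold change of 0.48 (SE 0.12, limma, adjusted p = 0.0250). That call was lost without any 1 of the Chrna4-labelled libraries, without vehicle replicate 2 and without vehicle replicate 3, with an adjusted p of up to 0.0866.

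Tnfrsf1b, the TNF receptor without a death domain that is found on immune and endothelial cells, had 62.0, 70.0 and 65.3 CPM in Chrna4-labelled livers, against 37.4, 52.6 and 61.4 CPM in vehicle livers. The groups were separated only by a narrow gap, and Tnfrsf1b did not pass (log2 fold change 0.40, 95% interval from 0.02 to 0.78, limma, adjusted p = 0.119). Its log2 fold change was 0.21 without vehicle replicate 1, and 0.56 with a call without vehicle replicate 3 (limma, adjusted p = 0.0366). Ltbr, the lymphotoxin beta receptor, had 82.7, 88.6 and 86.4 CPM in Chrna4-labelled livers, against 119, 96.4 and 89.4 CPM in vehicle livers. Its log2 fold change of -0.23 (interval from -0.50 to 0.04, limma, adjusted p = 0.195) became 0.10 with plain library totals.

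Tnfrsf10b, the death receptor for TRAIL and a known target gene of p53, had the largest log2 fold change of the tested receptors on the log2(CPM + 1) scale. It had 4.64, 3.49 and 2.91 CPM in Chrna4-labelled livers from 79, 66 and 55 reads, against 0.386, 0.751 and 0.546 CPM in vehicle livers from 5, 14 and 11 reads. Each Chrna4-labelled liver was above all vehicle livers, and the log2 fold change was 1.57 on the log2(CPM + 1) scale (SE 0.19, limma, adjusted p = 0.00145) and 2.66 by edgeR on the reads (quasi-likelihood test, adjusted p = 0.00118). The first scale understates the change of low genes, and by edgeR the value of Tnfrsf9 was larger, at 2.74.

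Tnfrsf22 and Tnfrsf23 are adjacent genes on chromosome 7 (143634806 to 143649661 and 143665809 to 143685872) for mouse receptors that bind TRAIL without a death domain. Tnfrsf23 had 1.70, 1.59 and 1.85 CPM in Chrna4-labelled livers, against 0.540, 0.590 and 0.645 CPM in vehicle livers, and rose with a log2 fold change of 0.77 (limma, adjusted p = 0.0109). Tnfrsf22 had 1.53, 2.38 and 1.38 CPM in Chrna4-labelled livers, against 1.23, 0.804 and 0.447 CPM in vehicle livers, and did not pass (0.60, limma, adjusted p = 0.0897), though it was called without vehicle replicate 1. The third gene of this cluster, Tnfrsf26, was at 0.795 to 1.01 CPM in Chrna4-labelled livers and 0.751 to 1.54 CPM in vehicle livers. These are related copies, and how reads that match several genes were treated is not given, so their single values are uncertain.

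Tnfrsf9, a costimulatory receptor of activated T and NK cells (chromosome 4, 150914562 to 150946102), had 2.58, 2.54 and 1.43 CPM in Chrna4-labelled livers, against 0.0772, 0.322 and 0.496 CPM in vehicle livers. All 3 Chrna4-labelled livers were higher, from 27 to 48 reads against 1 to 10 reads in vehicle livers, with a log2 fold change of 1.28 (limma, adjusted p = 0.00528). Tnfrsf11a, the receptor RANK that drives osteoclast and lymph node development, had 3.99, 6.09 and 3.66 CPM in Chrna4-labelled livers, against 0.540, 1.502 and 1.539 CPM in vehicle livers (log2 fold change 1.36, limma, adjusted p = 0.00671). Its soluble decoy osteoprotegerin, encoded by Tnfrsf11b, had 3.81, 4.61 and 4.66 CPM in Chrna4-labelled livers, against 2.39, 2.74 and 2.13 CPM in vehicle livers (0.65, limma, adjusted p = 0.0177). Both genes of this receptor and decoy pair were thus higher in every Chrna4-labelled liver than in any vehicle liver.

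Tnfrsf21, a death domain receptor known from neurons and T cells, had 15.3, 21.1 and 19.7 CPM in Chrna4-labelled livers, against 5.86, 9.17 and 7.84 CPM in vehicle livers (log2 fold change 1.20, SE 0.18, limma, adjusted p = 0.00311). Tnfrsf12a, the TWEAK receptor that is known to rise in injured liver, averaged 16.7 ± 2.22 CPM in Chrna4-labelled livers and 10.5 ± 1.58 CPM in vehicle livers (SD, n = 3 each; log2 fold change 0.63, limma, adjusted p = 0.0185). Its ligand gene Tnfsf12 showed no such gap, as given above. Tnfrsf14, which binds the product of Tnfsf14 on lymphocytes, averaged 12.3 ± 1.30 CPM in Chrna4-labelled livers and 7.41 ± 1.74 CPM in vehicle livers (SD, n = 3 each; 0.68, limma, adjusted p = 0.0260). Without single Chrna4-labelled libraries these smaller calls were lost: Tnfrsf14 without each of the 3, Tnfrsf12a without replicate 1 or 2 and Tnfrsf11b without replicate 2 or 3, with adjusted p-values of up to 0.0979.

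Of the remaining receptors, Tnfrsf18, Tnfrsf19 and Tnfrsf26 were tested and had intervals that span 0, with log2 fold changes of 0.15, -0.25 and -0.18. Below the filter, Tnfrsf13b, the receptor TACI of B and plasma cells, had 1.23, 0.741 and 0.954 CPM in Chrna4-labelled livers, against 0.0772, 0.375 and 0.348 CPM in vehicle livers. These groups did not overlap, and Tnfrsf13b was called in limma without the filter (adjusted p = 0.0165) and by edgeR's quasi-likelihood test (adjusted p = 0.0364). Tnfrsf4, a costimulatory receptor of T cells, averaged 0.876 ± 0.186 CPM in Chrna4-labelled livers and 0.449 ± 0.0952 CPM in vehicle livers (SD, n = 3 each) and was not called (limma without the filter, adjusted p = 0.0742). Tnfrsf8, Tnfrsf13c and Tnfrsf25 overlapped between the groups, and Tnfrsf8 had at most 4 reads in any library. Of 15 tested receptors 0 were lower by limma, 0 at an unadjusted p under 0.05, and 0 of 20 by edgeR or DESeq2. Over all tested genes 10.3% were lower by limma. In so few receptors 0 is near that share and does not set them apart. The filter also works against a lower call in 4 of them (Tnfrsf10b, Tnfrsf9, Tnfrsf22 and Tnfrsf23), which met it through their Chrna4-labelled values.

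**Figure D3:**
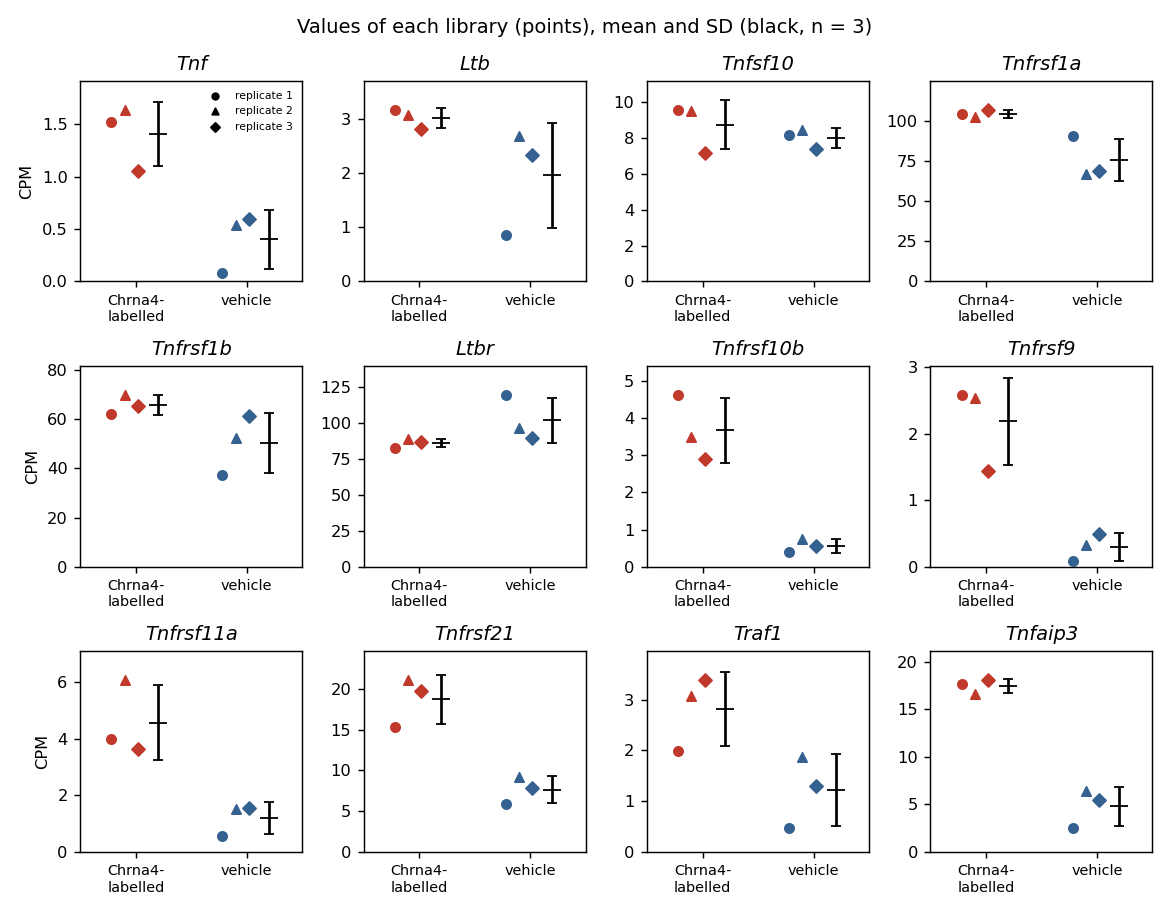
CPM of 12 members in each library, with Chrna4-labelled livers on the left and vehicle livers on the right of each panel; symbols mark replicates, and black marks give the mean and SD (n = 3 each). Tnfrsf10b, Tnfrsf9, Tnfrsf11a, Tnfrsf21 and Tnfaip3 show a clear gap between the groups, and Tnfsf10 overlaps. Vehicle replicate 1 is the lowest vehicle liver for Tnf, Ltb, Tnfrsf1b, Tnfrsf10b, Tnfrsf9, Tnfrsf11a, Tnfrsf21, Traf1 and Tnfaip3. It is the highest for Tnfrsf1a and Ltbr.

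With all 6 libraries, none of the TRAF adaptors, which couple receptors to kinases and ubiquitin ligases, passed the test. Their log2 fold changes ran from 0.0053 for Traf4 to 0.82 for Traf1. By limma 0 of 7 passed in either direction, where 24.5% of all tested genes were called. At an unadjusted p under 0.05 there were 2 (Traf1 and Traf7). edgeR called 0 and DESeq2 1, Traf1, which the authors' deposited table also lists as higher, with an adjusted p of 0.0184. Traf1, an adaptor without a RING domain that NF-kB induces, had 2.00, 3.07 and 3.39 CPM in Chrna4-labelled livers, against 0.463, 1.88 and 1.29 CPM in vehicle livers. The nearest values of the groups, 2.00 and 1.88 CPM, almost touched, and the adjusted p was 0.0584 by limma and 0.0495 by DESeq2. Traf2, which brings inhibitors of apoptosis to TNF receptors, averaged 15.4 ± 1.79 CPM in Chrna4-labelled livers and 14.0 ± 1.01 CPM in vehicle livers (SD, n = 3 each). Traf3, which restrains the non-canonical branch of NF-kB, averaged 17.4 ± 0.259 CPM in Chrna4-labelled livers and 14.9 ± 0.744 CPM in vehicle livers (SD, n = 3 each; log2 fold change 0.21, interval from -0.03 to 0.45). Traf6, the adaptor of Toll-like and interleukin 1 receptors, had an interval from -0.24 to 0.39, and Traf5 one from -0.18 to 0.96. Traf5 was called without vehicle replicate 1 (log2 fold change 0.67, limma, adjusted p = 0.0177), and Traf1 without vehicle replicate 2. With plain library totals 6 of the 7 were called higher, with log2 fold changes from 0.33 to 1.02, where the median of all genes had moved up by 0.32.

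Of the Traf3ip genes, which are not TRAFs themselves, Traf3ip3, known from lymphocytes, had 4.23, 4.08 and 4.08 CPM in Chrna4-labelled livers, against 0.617, 1.61 and 0.993 CPM in vehicle livers (log2 fold change 1.33, SE 0.20, limma, adjusted p = 0.00295). Traf3ip3 overlaps exons of A130010J15Rik on the other strand, and counting by strand is not stated. Traf3ip2, the adaptor of interleukin 17 receptors, had 3.93, 3.60 and 3.39 CPM in Chrna4-labelled livers, against 1.77, 2.31 and 2.13 CPM in vehicle livers (0.60, limma, adjusted p = 0.0231). The call for Traf3ip2 was lost without any 1 of the Chrna4-labelled libraries (adjusted p of up to 0.0840). Traf3ip1, which encodes a protein of cilia, averaged 13.6 ± 1.15 CPM in Chrna4-labelled livers and 13.2 ± 0.778 CPM in vehicle livers (SD, n = 3 each).

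Among the 6 tested Tnfaip genes the largest log2 fold change on the log2(CPM + 1) scale was that of Tnfaip3, which encodes the NF-kB inhibitor A20 (chromosome 10, 19000910 to 19015657, minus strand). It had 17.7, 16.6 and 18.1 CPM in Chrna4-labelled livers, against 2.47, 6.44 and 5.46 CPM in vehicle livers. The 3 Chrna4-labelled livers were nearly equal and all were more than the highest vehicle liver, with a log2 fold change of 1.74 (SE 0.26, limma, adjusted p = 0.00291), or 1.41 without vehicle replicate 1. Tnfaip2, an NF-kB target expressed in endothelial and myeloid cells, had 39.0, 43.6 and 52.7 CPM in Chrna4-labelled livers, against 13.3, 16.5 and 21.7 CPM in vehicle livers (1.36, SE 0.18, limma, adjusted p = 0.00207). Tnfaip8, a regulator of cell survival, had 9.10, 7.73 and 8.74 CPM in Chrna4-labelled livers, against 1.31, 3.003 and 2.68 CPM in vehicle livers (1.55, SE 0.22, limma, adjusted p = 0.00234).

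The relatives of Tnfaip8 moved in opposite directions. Tnfaip8l2, a brake on immune receptor signalling, had 5.99, 7.36 and 5.67 CPM in Chrna4-labelled livers, against 1.54, 3.33 and 3.03 CPM in vehicle livers (log2 fold change 1.05, limma, adjusted p = 0.0114, and 0.0568 without Chrna4-labelled replicate 2). Tnfaip8l1 was the only member that fell, with 18.02, 22.3 and 24.003 CPM in Chrna4-labelled livers, against 32.4, 34.9 and 28.1 CPM in vehicle livers (-0.55, SE 0.14, limma, adjusted p = 0.0209). Its call was lost without Chrna4-labelled replicate 1 or 2 or vehicle replicate 2 (adjusted p of up to 0.0703), and with plain library totals (-0.23, adjusted p = 0.205). Tnfaip8l3 was below the filter at 0.469 to 0.583 CPM in Chrna4-labelled livers and 0.0772 to 0.375 CPM in vehicle livers. Tnfaip1, a substrate adaptor of a ubiquitin ligase, averaged 46.999 ± 3.68 CPM in Chrna4-labelled livers and 38.1 ± 0.981 CPM in vehicle livers (SD, n = 3 each; limma, adjusted p = 0.0585). Tnfaip6, which encodes a hyaluronan-binding protein of inflammation, had 6, 8 and 10 reads in Chrna4-labelled livers, against 0, 1 and 3 reads in vehicle livers. Below the filter of the main test, Tnfaip6 was called by limma without the filter (adjusted p = 0.0277) and by edgeR's quasi-likelihood test (log2 fold change 2.41, adjusted p = 0.0442), and not by DESeq2 (adjusted p = 0.0972).

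Promoters were searched because Tnfaip3, Tnfaip2 and others are known NF-kB targets. RefSeq windows (GRCm38.p6) from 250 bases before to 50 after the start were found for 39 of the 47 members, 44 windows in all, and both strands were read. The kB consensus of NF-kB was in 8 of the 44 windows, or 18.2%, where 8.46% of all 32851 windows hold it. Those 8 belong to Tnfrsf9, Tnfaip2 and Tnfaip3, which rose, to Tnfaip8l1, which fell, to Ltb and Traf3, which did not pass, and to the untested Tnfrsf8 and Tnfrsf25. The following stretches of 30 bases show the matches in tested members, on the strand of the gene, with the match in capitals; matches that overlap are merged.
Tnfrsf9, chr4:150927946-150927975, plus strand: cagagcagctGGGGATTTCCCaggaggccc
Tnfaip3, chr10:19015516-19015545, minus strand: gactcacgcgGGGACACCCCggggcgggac
Tnfaip3, chr10:19015403-19015432, minus strand: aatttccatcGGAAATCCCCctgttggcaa
Tnfaip2, chr12:111442627-111442656, plus strand: gactattttaGGAGGGCCCCtccagggtcg
Tnfaip8l1, chr17:56162333-56162362, plus strand: ctattccggaGGAATCTCCCggccgcagac
Traf3, chr12:111166350-111166379, plus strand: ggcggcccgcGGGGATTTCCagcgcgcgag
Ltb, chr17:35194410-35194439, plus strand: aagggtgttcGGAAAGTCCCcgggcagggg
The same 10 letters, GGGGATTTCC, stood before the starts of Tnfrsf9 and Traf3, whose log2 fold changes were 1.28 and 0.21. Read on the other strand they are GGAAATCCCC, which stood before the start of Tnfaip3, with a log2 fold change of 1.74. A match is not a bound site, and no binding was measured.

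The stretch just before the start of Tnfaip3, up to the nearest annotated exon of another of its transcripts, is shown because both of its kB matches lie there with a match to the AP-1 motif TGANTCA, all in capitals (chr10:19015411-19015547, minus strand).
Tnfaip3: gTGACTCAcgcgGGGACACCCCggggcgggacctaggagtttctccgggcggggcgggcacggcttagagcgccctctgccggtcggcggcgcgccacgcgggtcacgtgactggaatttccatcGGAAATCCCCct
AP-1 was matched in 8 windows of members (18.2%, against 7.81% of all windows), among them Tnfrsf9. The others, beside Tnfaip3, belong to the untested Tnfaip6, Tnfrsf8, Tnfsf13, Tnfsf13b and Tnfsf14. The interferon-gamma motif GAS, TTCNNNGAA, was in 8 (18.2%, against 8.30%). Of these Tnfrsf1a and Tnfrsf9 rose, and Ltb, Tnfaip6, Tnfrsf18, Tnfrsf19, Tnfrsf1b and Tnfrsf25 did not pass or were not tested. The core of the interferon motif ISRE was in 3 (6.82%, against 3.44%), of which Tnfrsf14 rose. Of the 13 windows of members that rose, 3 held the kB consensus, 2 AP-1, 2 GAS and 1 the ISRE core. Windows of 1 gene can overlap, so windows are not independent.

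The signalling genes around the family were read from 4 lists with 79 genes, of which 68 were tested. By limma 23 were higher and 2 lower, where 14.2% of all tested genes were higher and 10.3% lower. The lists were chosen with earlier results of these data known, so their counts and medians are descriptions only. Superfamily members that carry other names were higher in 5 of 7 tested genes, all 5 of them receptors: Eda2r, a p53 target, with 10.8, 7.04 and 6.04 CPM in Chrna4-labelled livers, against 0.617, 0.858 and 1.04 CPM in vehicle livers (log2 fold change 2.26, limma, adjusted p = 0.000564), the neurotrophin receptor gene Ngfr (1.20), Cd27 (0.95), Cd40 (0.99) and Relt (0.87). The calls of the last 3 were lost without Chrna4-labelled replicate 1 or 2, and that of Cd40 also without replicate 3 (adjusted p of up to 0.0822). The ligand gene Eda did not pass (0.08), nor did the death receptor gene Fas, at 19.95, 15.1 and 15.5 CPM in Chrna4-labelled livers and 19.6, 15.2 and 13.7 CPM in vehicle livers. The list median was 0.95, against -0.01 over all genes tested.

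Of 29 tested genes of the TNF receptor complex and NF-kB, 4 were higher and 1 lower, counts near or under the 14.2% and 10.3% of all tested genes, and the median was 0.12. Without vehicle replicate 1, 7 were higher and 2 lower. Relb, a subunit of the non-canonical branch, had 7.92, 8.10 and 6.41 CPM in Chrna4-labelled livers, against 1.93, 2.15 and 3.33 CPM in vehicle livers (log2 fold change 1.31, limma, adjusted p = 0.00263). Tnip1, a partner of A20, rose by 0.76 (limma, adjusted p = 0.00513), the inhibitor gene Nfkbie by 0.57 (0.0262) and Rnf31, a subunit of the linear ubiquitin ligase, by 0.36 (0.0422). Chuk, the kinase IKK alpha, fell by 0.39 (limma, adjusted p = 0.0227), which plain library totals reduced to -0.06. The last 3 calls were lost without at least 1 library of each group (adjusted p of up to 0.180). Genes of the receptor complex such as Tradd (-0.03) and Ripk1 (-0.06), and the inhibitor gene Nfkbia (-0.06), did not pass.

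Genes of TNF processing and cell death split. The shedding protease gene Adam17 had 40.0, 38.2 and 39.5 CPM in Chrna4-labelled livers, against 19.4, 25.05 and 27.6 CPM in vehicle livers (log2 fold change 0.70, limma, adjusted p = 0.00783). Its trafficking partners Rhbdf2 and Rhbdf1 rose by 0.92 and 0.97 (limma, adjusted p = 0.00137 and 0.0115). Ripk3 and Mlkl, which carry out necroptosis, rose by 1.16 and 1.32 (limma, adjusted p = 0.00671 and 0.0111); the call for Mlkl was lost without Chrna4-labelled replicate 1 (adjusted p = 0.0508). The caspase pathway genes Casp8 and Fadd did not pass, at -0.07 and -0.18. In all 5 of 16 were higher and 0 lower by limma, where 14.2% of all tested genes were higher and 10.3% lower. In so few genes 0 lower is near that share. By edgeR and by DESeq2 0 were lower. By limma 2 were lower at an unadjusted p under 0.05, and 2 without vehicle replicate 1. The list median was 0.03.

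Known NF-kB target genes rose in 9 of 16 tested, and 1 fell, where 14.2% of all tested genes were higher and 10.3% lower. The list median was 1.05. As this list was chosen with earlier results of these data known, its counts and median are descriptions only. Lcn2, an iron-binding defence protein, rose by 1.90, the leukocyte adhesion gene Icam1 by 1.79 and Irf1 by 1.06 (limma, adjusted p = 0.000255, 0.00231 and 0.000396). Sod2, the mitochondrial superoxide dismutase, fell by 0.56 (limma, adjusted p = 0.00515), with 145, 148 and 154 CPM in Chrna4-labelled livers, against 246, 210 and 208 CPM in vehicle livers, and was not called with plain library totals (-0.23, adjusted p = 0.0670). Sele, the endothelial selectin gene, was below the filter, with 0.529 to 0.636 CPM in Chrna4-labelled livers against at most 0.0496 CPM in vehicle livers.

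**Figure D4:**
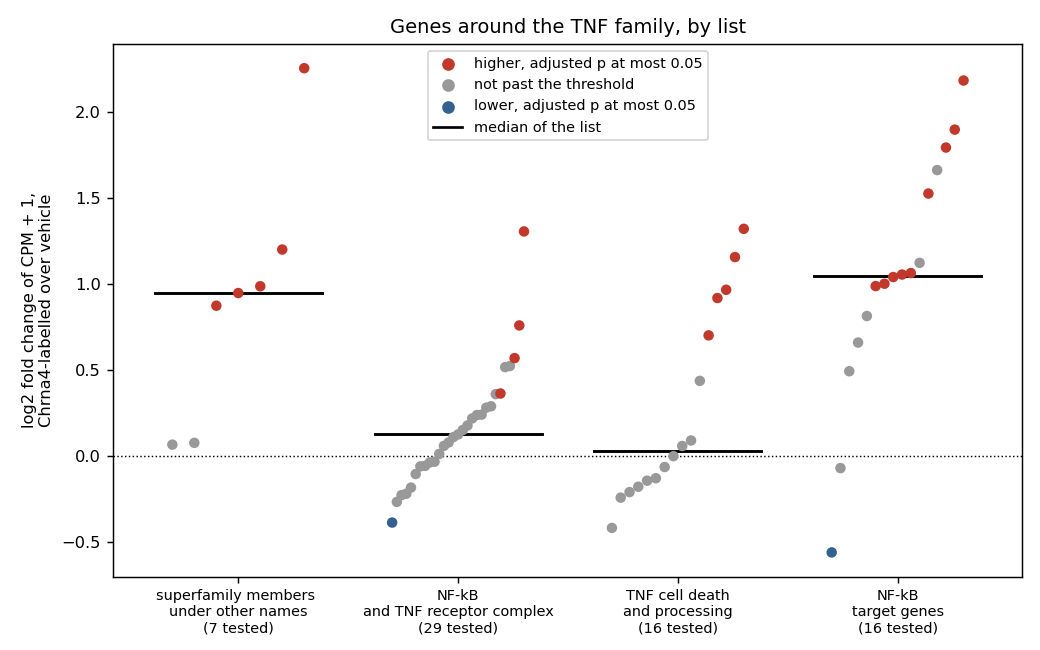
Log2 fold change of CPM + 1, Chrna4 adenovirus over vehicle, for the tested genes of 4 lists around the TNF family; points are genes, black lines list medians. Red and blue points passed an adjusted p of 0.05 by limma. The lists were chosen with earlier results of these data known. Target genes and superfamily members under other names have medians of 1.05 and 0.95, and the receptor complex and cell death lists medians of 0.12 and 0.03.

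Markers of immune cells were also higher in the Chrna4-labelled livers. Over all tested genes 14.2% were higher and 10.3% lower by limma. Summed markers of T and NK cells were 51.8 to 63.4 CPM in Chrna4-labelled livers and 8.10 to 27.3 CPM in vehicle livers. Of 12 tested markers 8 were higher. The NK marker Ncr1 had no read in at least 1 library. B and plasma cell markers summed to 31.8 to 48.0 CPM in Chrna4-labelled livers and 6.94 to 12.6 CPM in vehicle livers, with 3 of 6 higher. Monocyte, dendritic cell and neutrophil markers summed to 53.0 to 58.4 CPM in Chrna4-labelled livers and 11.7 to 15.9 CPM in vehicle livers, with 6 of 6 higher.

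Macrophage markers summed to 876 to 948 CPM in Chrna4-labelled livers and 268 to 699.7 CPM in vehicle livers. By limma 6 of 11 were higher and 2, Cd163 and Timd4 of resident macrophages, lower. Without vehicle replicate 1, 6 of these markers were higher and 5 lower. The low end in vehicle was replicate 1, which was also lowest for the other 3 immune sums. Stellate cell and fibroblast markers summed to 575 to 636 CPM in Chrna4-labelled livers and 194 to 216 CPM in vehicle livers, with 6 of 10 higher. Endothelial sums overlapped, at 391 to 513 CPM in Chrna4-labelled livers and 391 to 465 CPM in vehicle livers, and so did bile duct sums. Hepatocyte markers summed to 74928 to 82463 CPM in Chrna4-labelled livers and 88061 to 98533 CPM in vehicle livers. By limma 3 of 10 were lower and 0 higher, where 10.3% of all tested genes were lower and 14.2% higher. None was higher at an unadjusted p under 0.05 by limma, or by edgeR or DESeq2. The part of these cell types in the members' changes was not tested, and in whole liver RNA more cells of a type and more RNA per cell cannot be told apart.

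**Figure D5:**
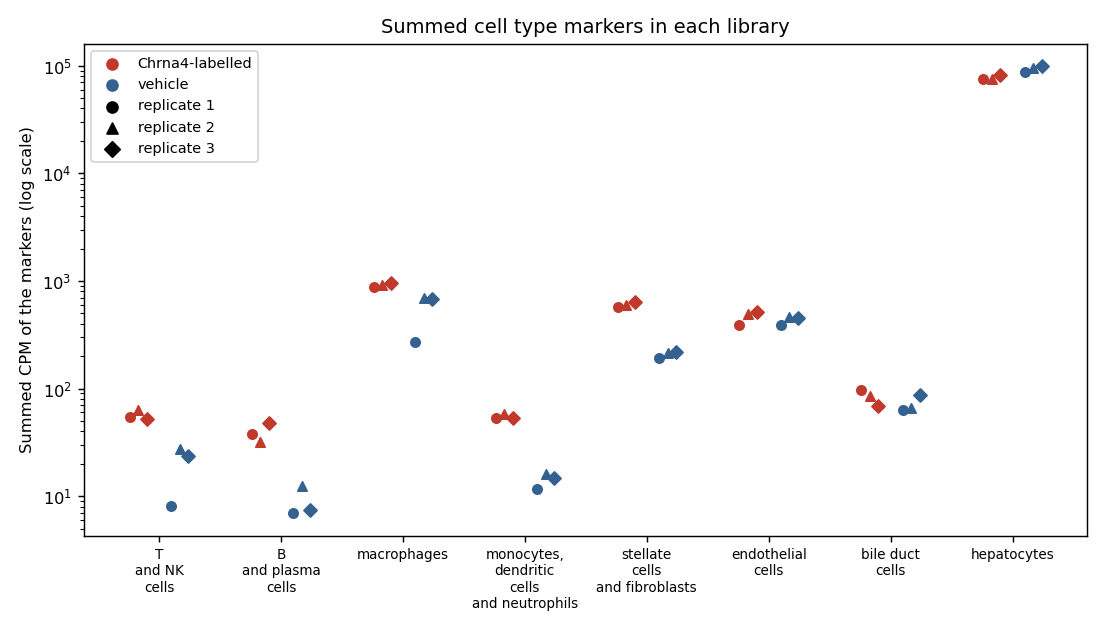
Summed CPM (log scale) of the markers of 8 cell types in each library, Chrna4-labelled livers left and vehicle livers right; symbols mark replicates. The 4 immune sums and the stellate cell sum are higher in each Chrna4-labelled liver than in any vehicle liver, and vehicle replicate 1 has the lowest of each immune sum.

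The groups did not overlap in 24 of the 34 tested members, where 43.0% of all tested genes lay apart, and all 16 called members were among the 24. Called members in either direction were 16, where 24.5% of all tested genes were called. Tnfrsf10b, Tnfrsf9, Tnfrsf22 and Tnfrsf23, which met the filter through their Chrna4-labelled values, are among the 24, so these counts are descriptions only. Of the 16, 9 kept their call in each of the 6 fits without 1 library: Tnfrsf10b, Tnfrsf21, Tnfrsf9, Tnfrsf11a, Tnfrsf23, Tnfaip2, Tnfaip3, Tnfaip8 and Traf3ip3. The highest adjusted p in those fits was 0.0499, for Tnfrsf23. The authors' deposited table lists 20 members as higher and 1 as lower at an adjusted p of 0.05, with 15.0% and 9.11% of its 14492 genes.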

How the data were processed

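Poly(A)+ RNA was sequenced as 150 bp pairs, per the labels' protocols. The submitters' processing notes name TopHat2 and HTSeq, and the builds mm10 and GRCm38, which are the same assembly; the sources used here do not give the annotation, the strand setting or what was done with reads matching more than 1 gene. The deposited table holds a signal per library: each value was a whole multiple (within 0.01) of the value of 1 read, for 100% of values, so it is CPM over a scaled library total with factors of 0.853 to 1.14. It also gives the authors' log2 fold change, mean log2 abundance, p-value and adjusted p-value. Every gene had at least 10 reads in the 6 libraries together.

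Groups were compared by limma 3.58.1 in R 4.3.3 (eBayes with trend), fitted to log2(CPM + 1) of all 12099 genes with a mean of at least 1, Benjamini-Hochberg adjusted, threshold 0.05; 2393 genes were not tested. Alternatives were edgeR 4.0.16 (quasi-likelihood) and DESeq2 1.42.0 on recovered reads, other pseudocounts, filters and scalings, and fits without 1 library. Exon lengths are unions of GENCODE M21 exons. Libraries of a group differed by far more than sampling noise, and 6 samples were counted. Chi-square per degree of freedom was 10.3 to 17.7 between Chrna4-labelled libraries and 47.5 to 65.7 between vehicle libraries. By this measure vehicle replicates 2 and 3 differed by 49.1, and replicates 1 and 2 by 47.5.

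Members and lists were chosen with earlier results of these data known. By rule, every called member is named, with each library's values for Tnf, Ltb, Ltbr, Tnfrsf1a, Tnfrsf1b and up to 6 called members of a class with the lowest p, and from each list up to 3 called genes in each direction with the lowest p; Rnf31, Cd40, Relt, Mlkl, Rhbdf1, Fas, Eda, Alb, Cd163, Timd4, Tradd, Ripk1, Nfkbia, Casp8, Fadd and Sele were added after their values were seen.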

Additional observations from a re-analysis of the deposited data

How the results depend on the processing

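The count of higher members (15 by limma) ran from 9 to 17 in fits without 1 library, where the lowest came without Chrna4-labelled replicate 2, and was 7 with a mean of at least 5 CPM, which leaves 19 members to test, and 25 with plain library totals. Under the remaining settings it was within 1.5 times of 15. The count of lower members was 0 with plain library totals and 0 to 1 without 1 library. Over all genes 2962 changed by limma, 4852 with plain library totals and 1442 to 3331 without 1 library. Of the pathway genes 25 changed, 43 with plain library totals, 14 with a mean of at least 5 CPM and 16 to 33 without 1 library. The log2 fold change of Ltbr reversed to 0.10 with plain library totals. Quantile normalization ended the calls of Tnfrsf11b, Tnfrsf14, Tnfrsf23 and Traf3ip2. Causes not shown by fewer genes tested or fewer libraries were not tested. The deposited column names number libraries 1 to 3 in both groups. Same-numbered libraries did not deviate together (correlations of deviations -0.06, -0.02 and 0.02), which cannot show whether mice were paired by design. With the replicate block 15 members were higher, Traf3ip2 losing its call and Traf1 gaining one, and 1 lower. In that fit 2418 genes changed over all and 24 of the pathway genes. Of the members at 0 to 10 reads a library, Tnfaip6 was called by limma without the filter and by edgeR, and Tnfsf8, Tnfsf9, Tnfrsf8 and Tnfrsf13c by neither nor by DESeq2; small differences were not detectable at this depth.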
